A study of Mus musculus with 18 samples.

Results

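The mRNAs of the cytosolic ribosomal proteins were followed through a polysome gradient in cultures of 4T1, a carcinoma of the BALB/c mouse mammary gland that stands in for triple-negative tumours of the human breast. Members were taken by symbol: names of the form Rpl or Rps with a number and at most 1 letter (a, l or x), with the P stalk proteins Rplp0, Rplp1 and Rplp2, and with Rpsa, Rpl36al, Rpl22l1, Rpl7l1 and Fau, while pseudogenes and the S6 kinases were left out by name. The rule found 86 of the 35976 listed symbols, 33 of the small subunit and 53 of the large, and 8 of them are paralogs of another ribosomal protein gene. After the filter on low counts 81 members were tested. The groups were heavy polysomes, light polysomes and unfractionated lysate (input) from cells with a hairpin against Dap5 (shDap5), and the same fractions from cells with a non-silencing hairpin (NSi), with 3 libraries of polyA-selected RNA in each of the 6 groups. All cells of both arms received 2 µg/ml doxycycline for 6 days. DAP5, the protein of the gene Eif4g2, is a translation initiation factor related to eIF4G. With a single line per arm and no library from cells without doxycycline, differences that the lines had before induction and effects of the hairpin cannot be told apart.

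Ribosomal protein mRNAs are among the most abundant messages of a growing cell, and the proteins are built with ribosomal RNA into the small and large ribosomal subunits. Many begin with a cytosine followed by a run of pyrimidines, the terminal oligopyrimidine or TOP motif, through which the kinase mTOR and the RNA-binding protein LARP1 control their translation. Their coding regions are short, so that few ribosomes fit on 1 message, and the genome carries many processed pseudogenes copied from them. The study was concerned with translation that does not need eIF4E and mTOR, and the mRNAs described here are the best known group that does need mTOR.

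The first bases of these mRNAs, as RefSeq places their starts, are shown for 8 members on which the results below turn or which have a long or absent pyrimidine run. Each window holds 10 bases before the annotated start and 20 from it on, and capitals mark a C followed by at least 4 bases that are each C or T, beginning within 10 bases of the start on the coding strand.
Rpl15: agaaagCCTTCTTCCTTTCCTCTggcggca
Fau: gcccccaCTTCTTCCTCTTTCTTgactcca
Rps6: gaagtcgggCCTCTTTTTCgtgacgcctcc
Rpl28: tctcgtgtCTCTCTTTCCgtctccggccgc
Rpl38: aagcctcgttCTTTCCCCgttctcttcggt
Rpl22l1: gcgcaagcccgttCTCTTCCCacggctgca
Rpl41: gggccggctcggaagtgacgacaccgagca
Rpl7l1: gctgcgcaagcgcagtagctgaagcaccgg
The windows lie at chr14:18270967-18270996 (minus strand) for Rpl15, chr19:6057937-6057966 (plus) for Fau, chr4:86857348-86857377 (minus) for Rps6 and chr7:4792955-4792984 (plus) for Rpl28. They lie at chr11:114668570-114668599 (plus) for Rpl38, chr3:28805498-28805527 (plus) for Rpl22l1, chr10:128549149-128549178 (minus) for Rpl41 and chr17:46782637-46782666 (minus) for Rpl7l1, all in the build GRCm38.p6. Such a run was found in 41 of the 65 members with a RefSeq window (63.08%), against 34.4% of all 27025 genes with one. The match describes letters in a window around an annotated start, and starts that differ in 4T1 cells would move it.

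Total counts ran from 30385863 to 71331978 per library. Eif4g2, the target of the hairpin, stood at 358, 277 and 222 CPM (counts relative to the library's total after scaling by the trimmed mean of M-values, TMM) on shDap5 heavy polysomes, against 864, 822 and 659.8 CPM on NSi heavy polysomes. It stood at 429, 311 and 274 CPM on shDap5 light polysomes, against 1315, 983 and 769 on NSi light polysomes. In shDap5 inputs it stood at 592, 340.4 and 671 CPM, against 799, 759 and 852 in NSi inputs. The arms did not overlap in any fraction, and edgeR's quasi-likelihood test called the fall on heavy (log2 -1.45, adjusted p = 0.00349) and light polysomes (log2 -1.60, adjusted p = 0.00204) but not in input (log2 -0.59, adjusted p = 0.202). The epithelial markers Krt8, Krt18, Epcam and Cdh1 were present in every library, and 16 of 21 markers of leukocytes, endothelium, fibroblasts, lymphocytes, adipocytes and red cells stayed at or under 2 CPM in all libraries, the exceptions being Cd68, Csf1r, Pdgfra, Tie1 and Col1a1. The nuclear RNA Malat1 averaged 8.95 CPM on shDap5 heavy polysomes, 27.8 on shDap5 light polysomes and 365 CPM in shDap5 inputs, and 11.2, 55.7 and 307 CPM in the same fractions of NSi cells.

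Ribosomal protein mRNAs took a larger share of the counts on light polysomes than on heavy polysomes or in the lysate. On heavy polysomes members held 2.11%, 1.19% and 2.08% of the counts in the 3 shDap5 libraries, against 1.64%, 1.37% and 2.02% in the NSi libraries. On light polysomes they held 4.15%, 3.46% and 5.97% in shDap5, against 3.69%, 3.26% and 5.42% in NSi. In inputs they held 1.42%, 1.52% and 1.36% in shDap5, against 1.32%, 1.42% and 1.38% in NSi. Every light library lay above every heavy library and every input, while the heavy libraries and the inputs overlapped. The arms overlapped in all 3 fractions. The libraries of number 3 were the highest of both arms on light polysomes, and the shDap5 heavy library of number 2 was the lowest of all. These shares and all CPM values are relative to the other mRNAs of a fraction and are not amounts per cell.

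**Figure D1:**
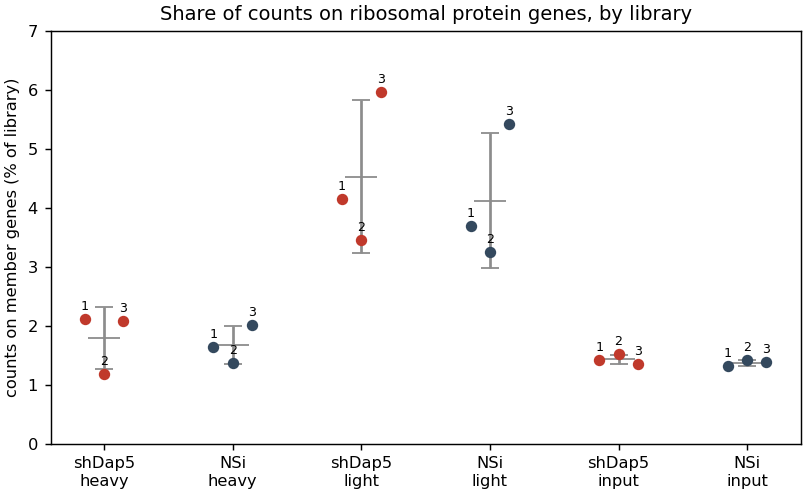
Share of each library's counts on the 86 member genes (y axis, percent) by arm and fraction (x axis); points are libraries with their replicate number, bars the mean and SD of 3. The 6 light libraries, between 3.26% and 5.97%, lie above all heavy and input libraries, which lie between 1.19% and 2.11%.

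Within the lysate the counted level of members ranged widely, although the proteins are needed in nearly equal numbers. Per kilobase of coding sequence, NSi inputs ran from 4.37 CPM for Rpl29 to 2349 CPM for Rpl41, with a median of 75.4 CPM over 81 members. In shDap5 inputs the same measure ran from 3.92 CPM for Rpl29 to 2933 CPM for Rpl41, with a median of 83.7. Counted levels moved with how much of a coding sequence occurs nowhere else. For each member, the 50-base windows of its coding sequence that match no transcript of another gene in GENCODE M21, on either strand, were counted. In 32 members no window was unique to the gene, in 69 fewer than 50% were, and in 12 at least 50% were. Among these 12, the median in NSi inputs was 837 CPM per coding kilobase, against 58.3 CPM for the other 69. Across the 81 members the share of unique windows and the level per coding kilobase in NSi inputs had a Spearman rho of 0.73, a description over genes that share the same 3 libraries. How reads shared with pseudogenes were counted is not given in the sources used here, and its part in these levels was not tested. Levels of members with few unique windows are therefore uncertain, and a level that reads as low need not be a rare mRNA.

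**Figure D2:**
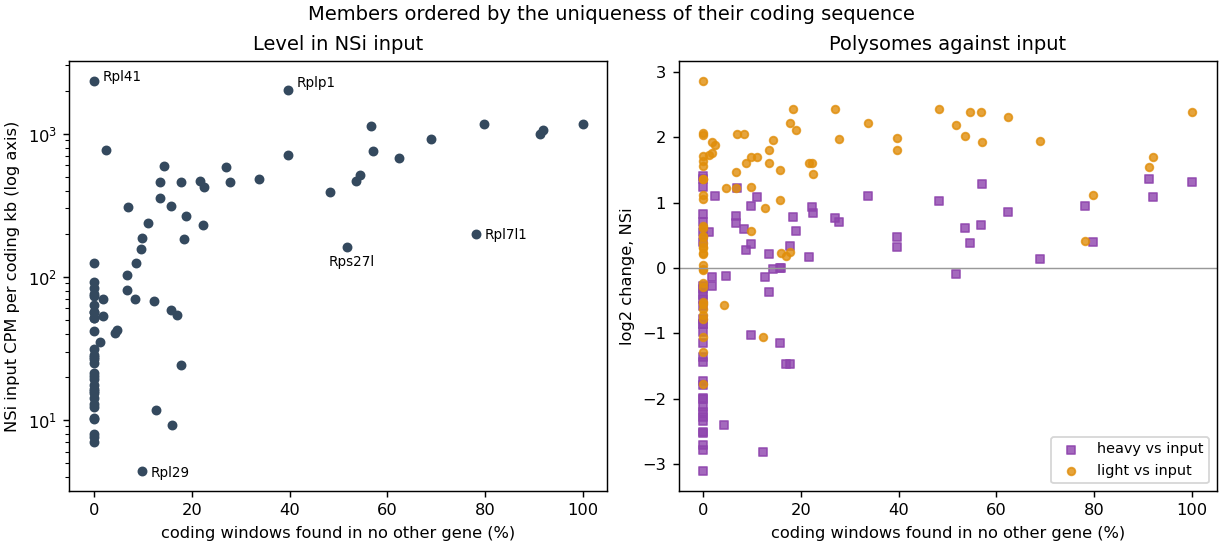
Left, level of 81 members in NSi input (CPM per coding kilobase, log axis) against the percent of coding windows found in no other gene; right, log2 change of the same members on NSi heavy (squares) and light polysomes (circles) against NSi input. Members with at least 50% unique windows lie between 162 and 1177 CPM per coding kilobase, and all but Rps27l lie above 0 in both comparisons on the right.

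Most members that stand for the main roles averaged highest on light polysomes, with Rps27a in shDap5 cells and Rpl5 in both arms as exceptions. Of the P stalk, which recruits elongation factors to the large subunit, Rplp0 averaged 895 ± 209 CPM on shDap5 heavy polysomes, 2033 ± 562 on shDap5 light polysomes and 667 ± 40.4 CPM in shDap5 inputs (SD, n = 3 each). Rplp1, also of the stalk, averaged 1090.5 ± 243, 2941 ± 957 and 768 ± 30.3 CPM in the same groups, and Rplp2 averaged 432 ± 151, 889 ± 163 and 195 ± 9.08 CPM. In NSi cells Rplp0 averaged 938 ± 147 CPM on heavy polysomes, 2361 ± 1013 on light polysomes and 675 ± 31.1 CPM in inputs. For all 3 stalk mRNAs the fall from light to heavy was called in both arms, and for none was a difference between the arms called.
Fau and Rps27a encode a ribosomal protein joined to a ubiquitin-like protein or to ubiquitin. Fau averaged 29.9 ± 7.83 CPM on shDap5 heavy polysomes, 47.4 ± 4.94 on shDap5 light polysomes and 12.4 ± 0.724 CPM in shDap5 inputs. Rps27a, with no unique coding window, averaged 9.03 ± 2.87, 15.3 ± 7.16 and 15.4 ± 1.73 CPM in the same groups, so that light polysomes stood above input for Fau and overlapped it for Rps27a.
Rps6, the substrate of the S6 kinases, averaged 6.37 ± 2.69 CPM on shDap5 heavy polysomes, 16.3 ± 6.80 on shDap5 light polysomes and 13.9 ± 1.27 CPM in shDap5 inputs. Rpl5 and Rpl11, which bind MDM2 when they are free of the ribosome, averaged 51.2 ± 2.84 and 8.11 ± 1.06 CPM in shDap5 inputs, against 45.7 ± 5.29 and 8.24 ± 2.72 CPM in NSi inputs. On shDap5 light polysomes Rpl5 averaged 43.2 ± 9.25 CPM. Per coding kilobase it averaged 50.9 CPM on NSi light polysomes, against 51.3 CPM in NSi inputs. Rps6, Rpl5 and Rpl11 have no unique coding window. Rps3, a small subunit protein at the mRNA entry channel, has 91.9% unique windows and averaged 925 ± 43.4 CPM in shDap5 inputs, against 777 ± 26.9 CPM in NSi inputs. Rps19 and Rps14, whose human counterparts are affected in Diamond-Blackfan anaemia and the 5q- syndrome, averaged 135 ± 4.72 and 228 ± 13.4 CPM in shDap5 inputs, against 116 ± 4.83 and 178 ± 9.88 CPM in NSi inputs. Rpl13a averaged 519 ± 13.4 CPM in shDap5 inputs, against 466 ± 19.4 in NSi inputs, and Rpsa, also known as the laminin receptor precursor, averaged 31.1 ± 2.24 and 30.7 ± 1.79 CPM. None of these differences between the arms was called.

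Along the gradient nearly all members were less represented on heavy than on light polysomes. In shDap5 cells 75 of the 81 tested members were lower on heavy than on light polysomes by edgeR's quasi-likelihood test (adjusted p under 0.05 over 15072 genes) and 1 was higher, where 20.2% of all tested genes were lower and 24.3% higher (44.5% in either direction). In NSi cells 70 were lower and 1 higher, where 25.6% of all tested genes were lower and 27.0% higher (52.6% in either direction). The 70 members called lower in NSi were also called lower in shDap5. The median log2 change of the members was -1.38 in shDap5 and -1.44 in NSi, while the median of all tested genes was 0.01 in shDap5 and -0.03 in NSi. Both subunits took part: 32 of 32 small-subunit and 43 of 49 large-subunit members were lower in shDap5, and 29 and 41 were lower in NSi. Of the 12 members with at least 50% unique windows, 10 were lower and 1 higher in shDap5, and 8 were lower and 1 higher in NSi, with a median of -1.23 in each arm.

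Rpl41, the member with the shortest coding sequence, had the largest fall in both arms among members of at least 5 CPM. Rpl41 encodes the smallest ribosomal protein and had 363, 197 and 407 CPM on shDap5 heavy polysomes, against 1410.4, 1001 and 2475 CPM on shDap5 light polysomes. It had 234, 172 and 289.9 CPM on NSi heavy polysomes, against 929, 801 and 2134 CPM on NSi light polysomes. Light and heavy libraries did not overlap in either arm, and the fall was -2.34 (SE 0.37, edgeR adjusted p = 0.000113) in shDap5 and -2.47 (SE 0.38, adjusted p = 3.91e-05) in NSi on the log2 scale. Rps12, a small subunit protein of the head region, had 12.2, 6.91 and 13.2 CPM on shDap5 heavy polysomes, against 43.6, 33.5 and 55.6 on shDap5 light polysomes, with log2 changes of -2.04 in shDap5 and -2.30 in NSi. Rps25, known in mammalian cells for its role in initiation at viral internal ribosome entry sites, had 27.5, 19.6 and 24.1 CPM on shDap5 heavy polysomes, against 88.9, 77.9 and 109 CPM on shDap5 light polysomes, with no overlap. Its log2 change was -1.95 (SE 0.21) in shDap5 and -2.20 (SE 0.21) in NSi. The other members among the 8 largest falls were Rps27l, Rpl39, Rpl38 and Rpl36a in both arms, with Rpl36 in shDap5 and Rpl22l1 in NSi, and their log2 changes ran from -2.28 (Rps27l, NSi) to -1.92 (Rpl36a, shDap5).

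Coding length and the change along the gradient moved together among the members. The coding sequences of the tested members ran from 75 bases (Rpl41) to 1257 bases (Rpl4), with a median of 453 bases, against 1389 bases over all tested genes with a coding length. Across the 81 members the log2 of the coding length and the log2 change from light to heavy had a Pearson r of 0.55 and a Spearman rho of 0.55 in shDap5, and 0.61 and 0.65 in NSi. Over all 12585 tested genes with a coding length the rho was 0.37 in shDap5 and 0.39 in NSi. These correlations describe genes measured in the same libraries, and genes are not independent replicates. The share of unique windows had a rho of 0.16 with the NSi change. Long members did not all stay on heavy polysomes. Rpl3, with a coding sequence of 1209 bases, had 11.3, 3.17 and 12.7 CPM on shDap5 heavy polysomes, against 41.0, 14.5 and 41.3 CPM on shDap5 light polysomes, a log2 change of -1.82. It has 4.31% unique windows and shares sequence with 26 pseudogenes, so its level is uncertain. By the pyrimidine run, the median change was -1.37 for 37 tested members with the run and -1.26 for 24 without it in shDap5, and -1.51 and -1.29 in NSi.

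**Figure D3:**
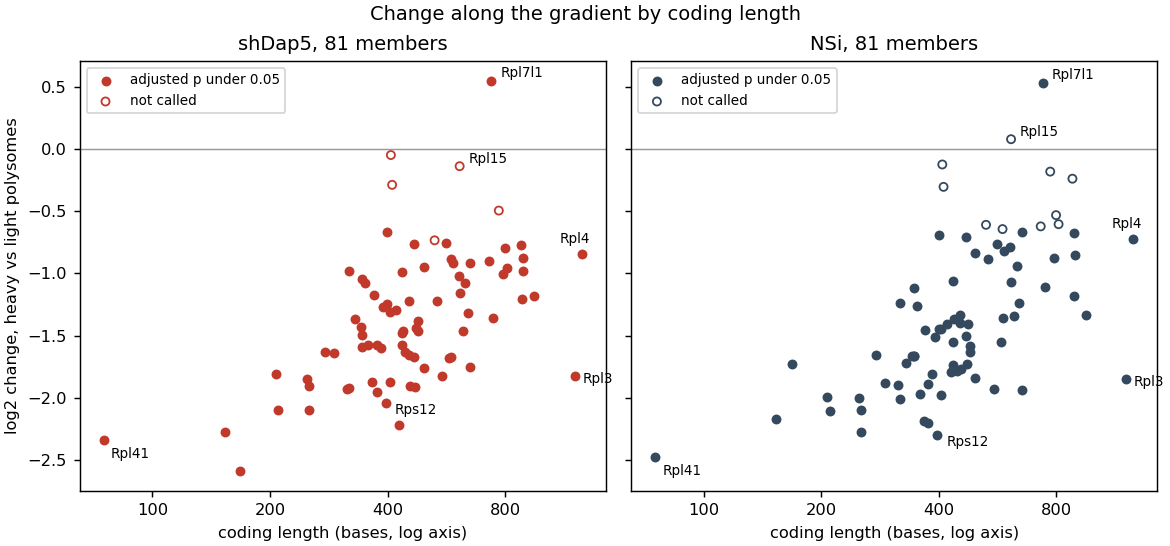
Log2 change from light to heavy polysomes (y axis) against coding length in bases (x axis, log scale) for 81 members in shDap5 (left) and NSi (right); filled points passed an adjusted p under 0.05. Points climb from Rpl41 at the lower left, and Rpl7l1 is the member above 0 in both arms.

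Members that were not called lower on heavy polysomes were few. Beside Rpl7l1 they numbered 5 in shDap5, among them Rpl15, Rpl27, Rpl28 and Rpl8, and 10 in NSi, where Rpl7, Rpl7a, Rps2, Rps3 and Rps9 joined the same 5. With the replicate number as a block, 1 shift per number shared by all groups, 77 members were called lower in shDap5 and 75 in NSi, so fewer were left without a call. A difference between the arms for these genes was not called by the interaction test described below, which called no gene at all. Rpl15, of the large subunit, had 68.9, 48.1 and 57.9 CPM on shDap5 heavy polysomes, against 60.3, 54.3 and 78.0 CPM on shDap5 light polysomes. In NSi it had 52.3, 45.3 and 54.5 CPM on heavy polysomes, against 56.5, 42.0 and 45.7 CPM on light polysomes, so that heavy and light libraries overlapped in both arms (log2 -0.14 in shDap5 and 0.08 in NSi). Rpl15 has the longest pyrimidine run of the windows printed above and no unique coding window. Rpl28 had log2 changes of -0.29 in shDap5 and -0.30 in NSi, and Rpl8, with 91.3% unique windows, had -0.50 and -0.18. The missed p does not show that these mRNAs were equal in both fractions.

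Rpl7l1, a paralog of Rpl7 whose yeast relative acts in large subunit assembly, was the single member called higher on heavy polysomes in either arm. It had 295, 189 and 211 CPM on shDap5 heavy polysomes, against 194, 143 and 138 CPM on shDap5 light polysomes. In NSi it had 327, 267 and 260.0 CPM on heavy polysomes, against 242, 185 and 165 CPM on light polysomes. All NSi heavy libraries lay above all NSi light libraries, while 1 shDap5 heavy library lay just below the highest shDap5 light library. In both arms each heavy library lay above the light library of the same number. The log2 change was 0.55 (SE 0.21, edgeR adjusted p = 0.0398) in shDap5 and 0.53 (SE 0.21, adjusted p = 0.0388) in NSi. The call is a narrow one: with DESeq2 the adjusted p was 0.0610 in shDap5 and 0.0508 in NSi, and it was also lost with median-of-ratios scaling. It was lost too without shDap5 heavy 1 (0.211), shDap5 light 2 (0.108) or shDap5 light 3 (0.132) in shDap5, and without NSi heavy 1 (0.135), NSi heavy 2 (0.0504), NSi light 2 (0.106) or NSi light 3 (0.144) in NSi. With the replicate number as a block the call was kept in both arms. Over all alternatives the adjusted p of edgeR or DESeq2 ran from 0.00633 to 0.211 in shDap5 and from 0.00515 to 0.159 in NSi. Rpl7 itself fell in shDap5, with 730.0, 489 and 599.9 CPM on shDap5 heavy polysomes, against 966, 821 and 1743 CPM on shDap5 light polysomes (log2 -0.96, adjusted p = 0.00953). Rpl7l1 has 78.1% unique windows and Rpl7 22.5%. The RefSeq window of Rpl7l1 holds no pyrimidine run.

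The other paralogs followed the group. Rps27l and Rpl36al were lower on heavy polysomes in both arms, with log2 changes of -2.09 and -0.98 in shDap5 and -2.28 and -1.24 in NSi, as were their partners Rps27 (-1.90 and -2.10) and Rpl36a (-1.92 and -2.01). Rps27l averaged 45.7 ± 7.57 CPM in shDap5 inputs, against 40.9 ± 4.14 CPM in NSi inputs, while Rps27, with no unique window, averaged 4.14 ± 0.403 and 3.09 ± 0.318 CPM. Rpl3l, Rpl10l, Rpl39l, Rps4l and Rpl32l did not pass the filter. Rpl3l, known from heart and skeletal muscle, had 27 counts over all 18 libraries and Rpl10l, known from the testis, 59 counts, all of them in 2 libraries. Rpl39l had 21 counts, Rps4l 13 and Rpl32l 0, and Rps4l and Rpl32l have no coding transcript in GENCODE M21.

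Against the lysate, light polysomes held more of most members. In NSi cells 53 of 81 members were higher and 4 lower on light polysomes than in input, where 26.7% of all tested genes were higher and 24.7% lower (51.4% in either direction), and the median log2 change was 1.48. Rpl41 led with 929, 801 and 2134 CPM on light polysomes, against 161, 189 and 178 CPM in inputs (log2 2.87, SE 0.38, edgeR adjusted p = 1.51e-05). Other large rises were those of Rpl37a, Rps14, Rps26, Rps15, Rps21 and Rpl32, between 2.31 and 2.43. Among members of at least 5 CPM, 3 fell: Rpl10 (-1.29), which joins the large subunit late in its assembly, Rps18 (-1.06) and Rpl10a (-0.78). The calls of Rps18 (adjusted p = 0.0421) and Rpl10a (adjusted p = 0.0344) were lost without a filter on low counts (0.124 and 0.0547) and without NSi light 1 (0.113 and 0.153), NSi light 2 (0.145 and 0.127), NSi input 1 (0.0520 and 0.0524) or NSi input 2 (0.175 and 0.121).

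Heavy polysomes against the lysate gave calls in both directions. In NSi cells 21 were higher and 25 lower on heavy polysomes than in input, where 26.4% of all tested genes were higher and 20.2% lower (46.6% in either direction), and the median was 0.14. The share of members higher was thus close to that of all genes. Without number 3 in any group that median was -0.05, without NSi heavy 3 alone it was -0.04, and without NSi heavy 2 it was 0.32. Rpl28 (log2 1.41), Rpl8 (1.36), Fau (1.36), Rps9 (1.29), Rpl27 (1.24), Rps10 (1.22) and Rplp2 (1.10) were among the largest rises, and the call of Rpl27 was lost without number 3 (adjusted p = 0.0692). Rpl8, a large subunit protein near the peptidyl transferase centre, had 2089, 1614 and 2174 CPM on heavy polysomes, against 751, 739.8 and 799 CPM in inputs. Rps18 (-2.82), Rpl10a (-2.71), Rpl10 (-2.52), Rpl3 (-2.41), Rpl9 (-2.27), Rps12 (-1.99), Rpl12 (-1.80) and Rpl38 (-1.72) fell most. Rpl10a had 10.8, 9.59 and 16.9 CPM on heavy polysomes, against 76.0, 97.0 and 71.2 CPM in inputs.
Both the unique share of the coding sequence and the counted level moved with these changes. Of the 12 members with at least 50% unique windows, 6 were higher and 0 lower on heavy polysomes than in input by edgeR, with a median of 0.76. Of the other 69, 15 were higher and 25 lower, with a median of -0.13. On light polysomes 11 of the 12 were higher and 0 lower, with a median of 1.98, against 42 higher and 4 lower of the 69 with a median of 1.24. The rho of the unique share with the change was 0.53 on heavy and 0.56 on light polysomes against input, and that of the level per coding kilobase in NSi input, which is also the lower term of these changes, was 0.62 and 0.71. Of 36 members with a mean of at least 100 CPM over all libraries, 16 were higher and 0 lower on heavy polysomes than in input by edgeR, and of the other 45, 5 were higher and 25 lower. That mean includes the polysome libraries, so a rise on polysomes itself moves a member toward the first set. The contrast is therefore partly fixed by the split. The unique share and the level move together, and their parts were not told apart. In the comparison of heavy with light polysomes the same 2 sets had medians of -1.23 and -1.45 in NSi. The part of reads from pseudogene copies in the input was not tested.

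Between the arms no member passed the edgeR test in any fraction when all 18 libraries were fitted without a block. In input 0 of 81 members were called by edgeR, where 6.95% of all tested genes were (3.01% higher, 3.94% lower), and 2 had an unadjusted p under 0.05. On light polysomes 0 were called, where 3.47% of all tested genes were (1.83% higher, 1.64% lower), and 3 had an unadjusted p under 0.05. On heavy polysomes 0 were called, where 3.95% of all tested genes were (2.03% higher, 1.92% lower), and 3 had an unadjusted p under 0.05. DESeq2 called 0 in input, 0 on light and 1 on heavy polysomes. With the replicate number as a block, shared by all fractions, edgeR called 1 member in each fraction, Rpl22l1. Of all 15072 genes the block called 1798 in input, 1013 on light and 1122 on heavy polysomes. The edgeR test without a block called the fall of Eif4g2 on both polysome fractions. In the fit of all 18 libraries the standard error of a member's log2 change had a median of 0.29 in each fraction, and a value as large as 1.05 (Rpl22l1 on heavy polysomes) missed the threshold. The dispersion of a gene is shared over those libraries, so this error does not describe the spread of the inputs alone. With the input libraries fitted alone the SE was 0.087 for Rpl22l1, against 0.29 in the fit of all libraries, and 0.12 for Rps12, against 0.26.

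The medians of the members between the arms were small, and on both polysome fractions their sign turned on single libraries. In input 60 of 81 members lay above 0, with a median log2 change of 0.16, while the median of all tested genes was 0.05. On light polysomes 55 lay above 0, with a median of 0.09 (all genes -0.01), and on heavy polysomes 49, with a median of 0.09 (all genes 0.01). The light median was -0.05 without NSi light 2 and -0.10 without shDap5 light 3, and it was 0.34 without NSi light 3 and 0.30 without shDap5 light 2. The heavy median was below 0 without shDap5 heavy 1 (-0.11), shDap5 heavy 3 (-0.02) or NSi heavy 2 (-0.06), and it was 0.32 without shDap5 heavy 2 and 0.20 without NSi heavy 3. The input median stayed between 0.11 and 0.25 with single libraries left out, the highest without NSi input 2. In input all 3 shDap5 libraries lay above all 3 NSi libraries for 29 members and below them for 5, where this held for 20.2% and 16.9% of all tested genes. On light polysomes there were 0 such members in either direction, where 10.2% of all tested genes were higher and 9.64% lower in this way. On heavy polysomes there was 1 higher, Rpl22l1, and 1 lower, Rpl28, where 7.6% and 8.11% of all tested genes were. Taken by replicate number, the median difference was 0.36, -0.19 and 0.03 on heavy polysomes for numbers 1, 2 and 3, so the sign there changed with the number. In input it was 0.22, 0.07 and 0.20, and on light polysomes 0.17, 0.02 and 0.07, so there the sign was the same in all 3 pairs. Leaving out a single library, as above, keeps its same-numbered partner in the other arm. When the input libraries were fitted alone, 10 members were called higher and 0 lower, among them Rpl22l1, Rpl15, Rps12 and Rpl23. That fit called 2218 of all 14600 genes it tested, both directions together. Its calls over all genes were not counted by direction, so these 10 rises have no matching share beside them. In bulk lysates fewer cells holding an mRNA and less of it per cell cannot be told apart.

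**Figure D4:**
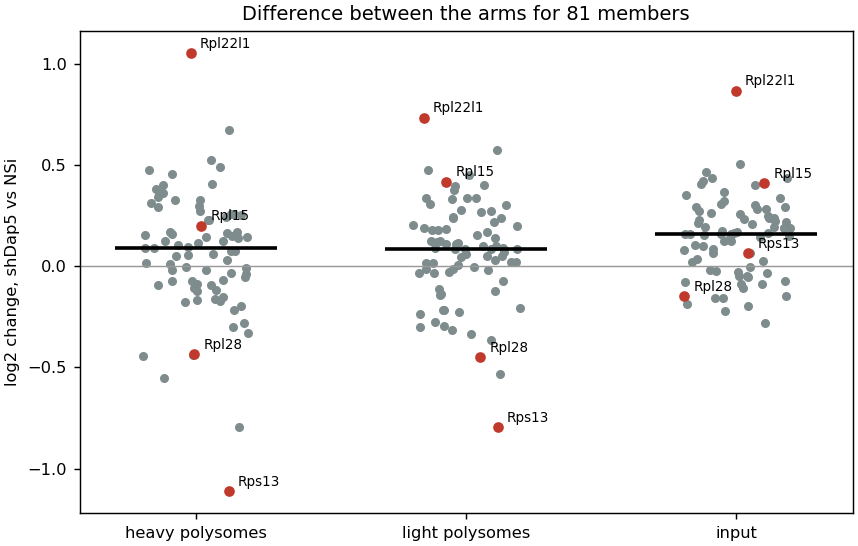
Log2 change of each of 81 members in shDap5 against NSi (y axis) on heavy polysomes, light polysomes and in input; black lines are medians, and 4 members are named in red. Rpl22l1 is the highest point in each fraction, and the medians lie between 0.09 and 0.16.

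Rpl22l1, the paralog of the RNA-binding large subunit protein Rpl22, which represses it in mice, had the highest value between the arms in each of the 3 fractions. In input it had 38.6, 37.7 and 40.5 CPM in shDap5, against 19.2, 21.99 and 22.8 CPM in NSi. On light polysomes it had 60.7, 46.3 and 112 CPM in shDap5, against 40.8, 32.3 and 58.6 CPM in NSi. On heavy polysomes it had 19.9, 13.2 and 26.9 CPM in shDap5, against 7.82, 9.11 and 11.96 CPM in NSi. The arms did not overlap in input or on heavy polysomes, and they overlapped on light polysomes, where each shDap5 library still lay above the NSi library of the same number. The log2 change was 0.87 in input (SE 0.29, edgeR adjusted p = 0.0897), 0.73 on light polysomes (SE 0.29, adjusted p = 0.206) and 1.05 on heavy polysomes (SE 0.30, adjusted p = 0.0573), none of which passed. Same-numbered libraries of the arms went together within a fraction, more weakly in input (correlations of 0.13 to 0.37). With the replicate number as a block Rpl22l1 was called in all 3: the edgeR adjusted p was 0.00653 in input, 0.0390 on light and 0.00429 on heavy polysomes. That block gives each number 1 shift shared by all fractions, although the numbers did not pair NSi input with NSi polysomes. These p-values rest on that shared shift. Rpl22l1 was the only member called higher in each fraction of the blocked fit, with log2 changes of 0.87, 0.70 and 1.03. On heavy polysomes it also passed with DESeq2 (adjusted p = 0.0228), and by edgeR without shDap5 library 2 (0.0252) and without NSi library 3 (0.0477). In input it also passed by edgeR with the input libraries fitted alone (0.00218). It missed the threshold under all other alternatives. Over all alternatives the adjusted p of edgeR or DESeq2 ran up to 0.269 in input, 0.785 on light and 0.252 on heavy polysomes.
Rpl22 itself had 371, 397 and 348 CPM in shDap5 inputs, against 342, 351 and 365 CPM in NSi inputs, which overlapped (log2 0.08, SE 0.27, adjusted p = 0.922). On heavy polysomes Rpl22 had 542, 308 and 607 CPM in shDap5, against 390.3, 277 and 495 CPM in NSi (log2 0.33). Rpl22l1 has 15.8% unique windows and shares sequence with 3 pseudogenes, so its level is uncertain, and Rpl22 has 69.0%. The RefSeq window of Rpl22l1 holds a pyrimidine run of 8 bases that begins 3 bases after the annotated start.

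**Figure D5:**
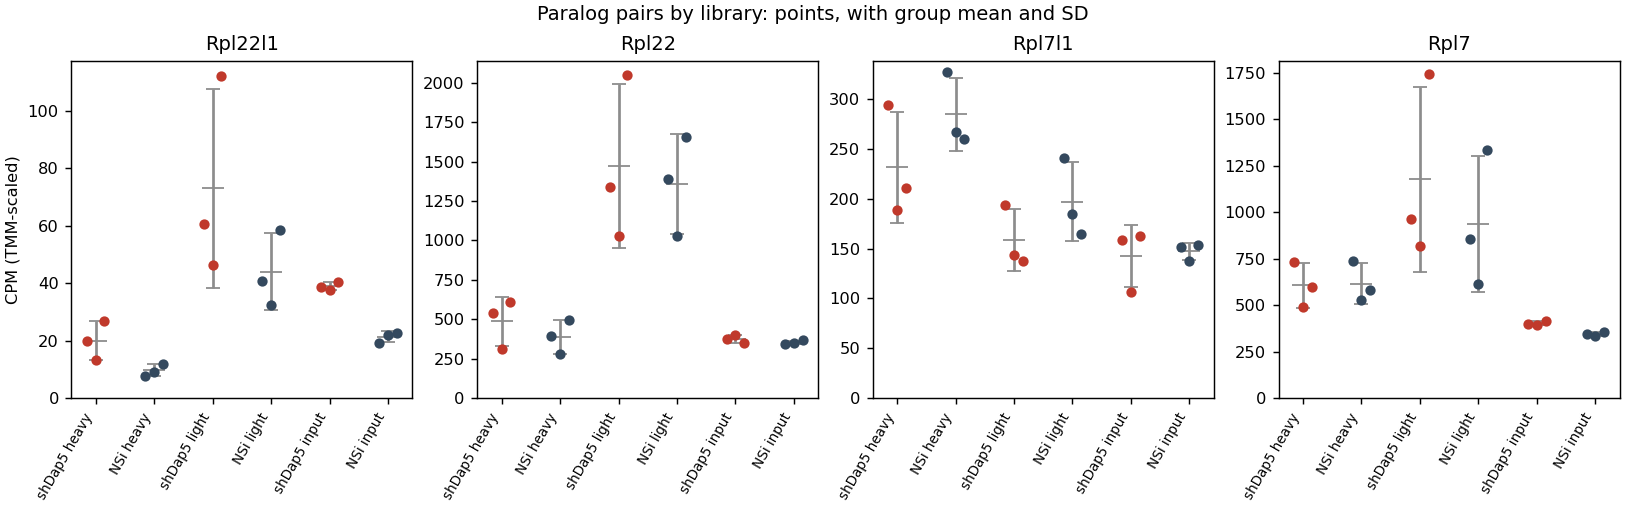
CPM of Rpl22l1, Rpl22, Rpl7l1 and Rpl7 (y axes from 0, each with its own scale) in the 3 libraries of each group, heavy, light and input with shDap5 left of NSi; bars are the mean and SD. Rpl22l1 lies between 37.7 and 40.5 CPM in shDap5 inputs and between 19.2 and 22.8 CPM in NSi inputs, and Rpl7l1 peaks on heavy polysomes where Rpl7 peaks on light ones.

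The members with the next smallest p-values did not pass in any fraction. Rpl15 had 44.6, 44.0 and 49.7 CPM in shDap5 inputs, against 32.9, 35.5 and 35.6 CPM in NSi inputs (log2 0.41, SE 0.17, edgeR adjusted p = 0.163), and a log2 change of 0.42 on light polysomes (adjusted p = 0.202). Rps12 had 45.9, 46.1 and 49.4 CPM in shDap5 inputs, against 32.7, 38.4 and 28.6 CPM in NSi inputs (log2 0.50, adjusted p = 0.303). Rpl28 had a negative value, with 23.7, 16.8 and 19.7 CPM on shDap5 heavy polysomes, against 24.5, 29.7 and 27.0 CPM on NSi heavy polysomes (log2 -0.43, adjusted p = 0.242). Rpl23 in input (0.44), Rpl7l1 on light polysomes (-0.31), and Rps2 (-0.44) and Rpl27a (0.46) on heavy polysomes complete the set.

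Whether the arms differed in how the mRNAs were placed on polysomes was asked with the interaction of arm and fraction. In each of the 3 pairs of fractions, 0 of 81 members and 0 of all 15072 genes were called by edgeR, which is 0% of all tested genes, and 0 members had an unadjusted p under 0.05. DESeq2 also called 0 members in each. The median difference of the members was -0.09 for heavy relative to input, -0.06 for light relative to input and 0.02 for heavy relative to light, where it was -0.01 with median-of-ratios scaling and with DESeq2. Single libraries turned the sign of each. Heavy relative to input ran from -0.27 without shDap5 heavy 1 to 0.17 without shDap5 heavy 2, and light relative to input ran from -0.29 without shDap5 light 3 to 0.17 without NSi light 3. Heavy relative to light ran from -0.26 without NSi light 3 to 0.31 without shDap5 heavy 2. Leaving out a single library keeps its same-numbered partners, which itself can move these medians. With number 3 left out of all groups the 3 medians were -0.01, -0.02 and 0.02, and with the replicate block -0.095, -0.070 and 0.0068. The smallest p-values belonged to Rps2 (-0.41), Rpl30 (-0.44), Rps25 (0.31) and Rpl28 (-0.28) for heavy relative to input. For light relative to input they belonged to Rpl30 (-0.60), Rpl28 (-0.30), Rps12 (-0.40) and Rpl36 (0.41), and for heavy relative to light to Rps2 (-0.53), Rps7 (-0.31), Rps20 (0.39) and Rpl8 (-0.31). The standard error of a member had a median of 0.41, 0.40 and 0.41 on the log2 scale in these comparisons, and values well above it did not pass, such as -0.60 for Rpl30 in light relative to input (SE 0.34) and -1.17 for Rps13 in heavy relative to input (SE 0.67). The absence of calls does not show that the arms placed these mRNAs alike.

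Related groups of mRNAs give the setting for these values. Of all tested genes, 20.2% were lower and 24.3% higher on heavy than on light polysomes in shDap5, and 25.6% and 27.0% in NSi. Of 24 other known TOP mRNAs, 12 were lower and 1 higher on heavy than on light polysomes in shDap5, with a median of -0.66, and 7 were lower and 5 higher in NSi, with a median of -0.43. Pabpc1, the poly(A)-binding protein, and Naca, of the nascent chain complex, fell in NSi by -1.40 and -1.18, while Fbl, the methyltransferase fibrillarin, rose in shDap5 by 0.92. Of 76 mitochondrial ribosomal proteins, which form a separate ribosome, 11 were lower and 18 higher in shDap5, with a median of 0.17, and 23 were lower and 19 higher in NSi, with a median of 0.13. Mrpl4 rose in NSi by 1.14 while Mrpl42 fell by -2.03. Of 38 ribosome assembly factors 3 were lower and 20 higher in shDap5, with a median of 0.68, and 2 were lower and 24 higher in NSi, with a median of 0.79. Bop1 and Pes1, partners in large subunit assembly, rose by 1.82 and 1.24 in shDap5 and by 2.07 and 1.46 in NSi.
Between the arms, 0 of the other TOP mRNAs, the mitochondrial ribosomal proteins and the assembly factors were called by edgeR in any fraction. Of all tested genes 6.95% were called in input, 3.47% on light and 3.95% on heavy polysomes. The medians of these 3 lists in input were 0.24, 0.07 and 0.07, and on heavy polysomes 0.01, 0.03 and -0.27. Of 24 genes of the mTOR pathway and TOP regulation, 1 was lower in shDap5 input, where 3.94% of all tested genes were lower. It was Deptor, an inhibitor of mTOR, at -1.22 (SE 0.30, edgeR adjusted p = 0.0194). Of 14 ribosomal protein chaperones and importers, Nacad, which has a domain of the nascent polypeptide-associated complex, was lower in shDap5 in input (-1.89, adjusted p = 0.00940) and on heavy polysomes (-2.02, adjusted p = 0.0120). On heavy polysomes 1.92% of all tested genes were lower. Of 9 p53 pathway genes, 0 were called between the arms by edgeR. Ccng1 had the smallest p-values, at 0.41 in input (adjusted p = 0.0958) and 0.48 on heavy polysomes (adjusted p = 0.0703).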

How the data were processed

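For each of 18 libraries the authors deposited a count for every gene symbol, not normalized. Bowtie and the build mm9 are named in the submitters' processing notes. How reads were assigned to genes (program, gene models, strand, reads with several matches) is not given in the sources used here. The reference at hand has another build than the files, so members were matched by symbol, lengths and unique windows came from GENCODE M21, and the only coordinates printed are those of RefSeq windows.

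Tests were edgeR quasi-likelihood F tests (edgeR 4.0.16, limma 3.58.1, R 4.3.3) with TMM scaling, a robust fit and filterByExpr (minimum count 10, minimum total 15). All 18 libraries entered 1 fit with a mean for each group (12 residual degrees of freedom), and the common coefficient of biological variation was 0.227. The 15072 genes that passed were adjusted together by the Benjamini-Hochberg method, and called, rose or fell means an adjusted p under 0.05. The fit was tested on simulated data. DESeq2 1.42.0 and the other alternatives are described at the end. CPM values are TMM-scaled, and CPM per kilobase divides by the coding length. The difference by replicate number used log2(CPM + 0.5).

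A symbol with 0 counts could still stand at up to 3 counts, or 0.0421 to 0.0987 CPM of the library's raw total (not TMM-scaled), a limit that covers counting error only. Whether replicate libraries are separate cultures is not in the labels, and p-values reflect only how these libraries spread, possibly for technical reasons. Replicates differed by more than counting noise (chi-square over its degrees of freedom at least 9.62). Replicate numbers come from the sample titles. Deviations from the group means correlated between same-numbered libraries of the arms (0.13 to 0.37 in input, 0.56 to 0.79 on light, 0.51 to 0.83 on heavy polysomes) and of heavy and light polysomes within an arm (0.51 to 0.76), so the numbers pair these. They did not pair NSi input with NSi polysomes (-0.32 to 0.10). The replicate block still gives each number 1 shift shared by all groups, and its p-values rest on that.

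The members and the other gene lists were chosen with earlier results of these data known. Named were Eif4g2, in each comparison the 8 largest called rises and falls among members of at least 5 CPM on average (with fewer than 3 calls, the 4 smallest p-values), the paralog pairs, and a fixed set by role. Rpl15 and Rpl28 along the gradient, Rps13 in the interactions, Rpl35, Rps7 and Rpl6 at the end, and the splits at 100 CPM and at 50% unique windows were picked after their values were seen. Some members that this rule names are not reported here.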

Additional observations from a re-analysis of the deposited data

Results flagged for a closer look

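A handful of members had differences between the arms that pointed one way in all 3 pairs of same-numbered libraries of 1 fraction and the other way in all 3 pairs of another. The share of all tested genes with such a pattern is not given, so it cannot be read as particular to these members. On light polysomes relative to input, the arm difference of Rpl35 changed by -0.21 on the log2 scale (SE 0.47) and that of Rps7 by 0.20 (SE 0.31). On heavy polysomes relative to input, that of Rps25 changed by 0.31 (SE 0.28). On heavy relative to light polysomes, that of Rpl6 changed by -0.30 (SE 0.39) and that of Rps7 by -0.31 (SE 0.31). None passed edgeR's interaction test over all genes, where the adjusted p lay between 0.999642 and 0.999997, and each SE is about as large as its change or larger.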

How the results depend on the processing

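The total counts of members called between fractions, both directions together, stayed within 1.5 times of the reported counts under median-of-ratios scaling, TMM without the members, no filter, DESeq2, the compared groups alone, the replicate block and single libraries left out. Leaving out each library in turn gave 57 to 75 calls for shDap5 heavy against light, 57 to 73 for NSi heavy against light, 38 to 50 for NSi heavy against input and 53 to 56 for NSi light against input. By direction, the 4 members lower for NSi light against input were 2 without the filter and 2 without NSi light 1, NSi light 2, NSi input 1 or NSi input 2, and the 1 higher for heavy against light was 0 in both arms under median-of-ratios scaling, DESeq2 and the compared groups alone. The block across NSi input and polysomes, whose libraries share only a number, gave 55 and 59 calls for heavy and light against input.

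Between the arms the replicate block gave 1 call in input, 1 on light and 1 on heavy polysomes, DESeq2 gave 1 on heavy polysomes, and the compared groups alone gave 10 in input. Over all genes these settings gave 1798, 1013 and 1122 calls of 15072 (block), 1002 of 16679 (DESeq2) and 2218 of 14600 (compared groups). Leaving out single libraries gave 0 calls in input and on light polysomes and 0 to 1 on heavy polysomes. The interactions gave 0 members under each alternative. Over all genes they gave 0 calls too, except without shDap5 input 2. There 9 of 15345 genes were called for heavy relative to input and 8 for light relative to input. Without number 3 in all groups, an alternative added after the data were seen, the value of Rpl28 for light relative to input was 0.00737, against -0.30 with all libraries. Of the values for single named members under alternatives, 932 kept direction and side of the threshold, 10 gained a call, 26 lost one and 1 reversed. The causes were not tested. The median of all genes for NSi heavy against input was -0.12 without the filter and -0.11 in DESeq2, where the member median was 0.00. Depth limits members with few counts, and shared sequence limits 69 of 81.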

Other observations

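The rule on names does not take every ribosomal protein symbol. Rps3a1, of the small subunit, averaged 58.8 ± 20.1 CPM on shDap5 heavy polysomes, 122 ± 42.1 on shDap5 light polysomes and 65.8 ± 2.05 CPM in shDap5 inputs (SD, n = 3 each), and it was lower on heavy than on light polysomes in shDap5 (log2 -1.05, edgeR adjusted p = 0.00291) and NSi (-0.87, adjusted p = 0.00755).

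The listed copies behaved likewise. Rpl37rt and Rps27rt were lower on heavy than on light polysomes in shDap5 (-1.79 and -2.38) and NSi (-1.99 and -2.21), and the pseudogene Rpl14-ps1 was lower by -0.91 in shDap5 and -0.86 in NSi. How reads shared by a copy and its parent gene were counted is not given in the sources used here.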
